A study of Mus musculus with 6 samples.

Results

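Mest, Copg2, Cpa4 and Klf14 are neighbours in an imprinted region of mouse chromosome 6, and they were taken by name from the deposited count table, 4 of its 56953 features. They were measured by RNA sequencing in tailbud tissue dissected from mouse embryos at day 9.5, which per the labels holds neuromesodermal progenitors and somitic and intermediate mesoderm. Wild-type embryos gave 3 libraries and Fgfr1 FCPG/FCPG embryos 3 more. The FCPG allele changes, by point mutation, residues through which this fibroblast growth factor receptor binds its effectors, and the study set the groups side by side to see transcription in developing mesoderm with and without canonical FGF signaling. The labels give no strain, litter or sex, and do not say whether a library is 1 embryo or a pool, so p-values measure the spread between these libraries only. The genes were chosen by symbol and place on the chromosome, but with the log2 fold changes and CPM of this same comparison known from an earlier analysis. Their values in it are therefore a description, and the test results beside them support nothing independently.

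Imprinted genes are transcribed mainly from the copy inherited from 1 parent. Mest, also called Peg1, is transcribed from the paternal copy, is abundant in embryonic mesoderm and encodes a protein of the alpha/beta hydrolase family. The CpG-rich start of Mest is methylated on the maternal copy, and an intron of the gene holds the microRNA gene Mir335. Copg2 encodes the gamma-2 subunit of the COPI coat, which forms vesicles between the Golgi and the endoplasmic reticulum, and lies tail to tail with Mest on the other strand. Klf14, a gene without introns for a Kruppel-like transcription factor, is expressed from the maternal copy. Cpa4 belongs to a row of genes for secreted carboxypeptidases beside the cluster. Counts per gene do not tell the parental copies apart, so nothing below measures imprinting itself.

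The starts of Mest and Copg2 are shown because Mest has several and the count of a gene pools them. The sequences are those RefSeq gives on GRCm38.p6, an older build than the mm39 named by the submitters, and 3 of the 4 genes had an entry, which Klf14 had not. Each is the 250 bases before a start, 5′ to 3′ on the strand of the gene, with the dinucleotide CG, the site of DNA methylation, in capitals. The first Mest window lies at chr6:30737800-30738049 on the + strand and the other at chr6:30733256-30733505 on the + strand, and the Copg2 window lies at chr6:30896795-30897044 on the - strand.
Mest, CpG-rich start: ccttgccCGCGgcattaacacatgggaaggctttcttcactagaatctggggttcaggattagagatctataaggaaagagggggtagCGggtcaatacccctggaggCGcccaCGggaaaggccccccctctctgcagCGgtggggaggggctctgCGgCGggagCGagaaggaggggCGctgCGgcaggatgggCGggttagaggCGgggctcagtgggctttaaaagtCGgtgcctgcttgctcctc
Mest, upstream start: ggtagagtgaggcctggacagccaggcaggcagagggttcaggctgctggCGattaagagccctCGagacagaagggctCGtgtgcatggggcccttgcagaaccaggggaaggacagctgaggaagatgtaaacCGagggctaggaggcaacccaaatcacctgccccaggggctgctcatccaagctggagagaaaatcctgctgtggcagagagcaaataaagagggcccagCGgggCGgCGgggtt
Copg2: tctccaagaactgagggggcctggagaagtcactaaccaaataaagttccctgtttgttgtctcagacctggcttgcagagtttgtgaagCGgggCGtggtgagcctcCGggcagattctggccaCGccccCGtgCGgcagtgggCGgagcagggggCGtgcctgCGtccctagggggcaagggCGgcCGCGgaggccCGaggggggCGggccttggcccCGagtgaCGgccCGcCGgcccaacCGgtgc

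The motif searched was CG, which reads the same on both strands, and 92.1% of 32851 such windows of all genes hold it, with a median of 6 per window. The CpG-rich Mest window holds 14, a number that 29.4% of the windows reach. The upstream Mest window holds 7, which 46.3% reach, and the Copg2 window holds 19, which 19.7% reach. The Cpa4 window holds 2, which 81.2% reach. These are properties of the reference sequence, and methylation was not measured.

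The mature products of Mir335 are shown because their host, Mest, was the only gene of the 4 that passed in edgeR. They are printed as RefSeq gives them, with the seed, bases 2 to 8, in capitals, and the seeds of the arms differ.
mmu-miR-335-5p: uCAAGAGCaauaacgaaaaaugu
mmu-miR-335-3p: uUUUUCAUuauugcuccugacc

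How far the row names can be trusted was examined from the level of the neighbours, without the genotype. Many names in the table do not match the reads counted under them, as with the tailbud gene T, whose row is at 0 in all libraries. Levels below are in CPM, counts scaled to the TMM-adjusted library size. Of 16 broadly expressed genes from Arf5 to Cep41, on the Cpa4 side of Mest, 15 reached a mean of 10 CPM over the 6 libraries, with a median of 337 CPM. Strip2 did not. Beyond Copg2, 4 of 6 such genes reached 10 CPM and the median was 28.8 CPM, with Chchd3, a subunit of the inner-membrane organizing complex of mitochondria, at means of only 0.65 and 0.52 CPM in the wild-type and mutant groups. Among tissue-restricted genes, 4 of 12 before Mest and 1 of 2 beyond Copg2 reached 10 CPM. Cep41, a centrosomal gene next to Mest, averaged 71.3 ± 5.7 CPM (wild type) and 76.1 ± 7.8 CPM (mutant) (SD, n = 3 per group, as for every ± of a CPM below). Levels of the listed broadly expressed genes were thus plausible for their names up to Mest. They were less so beyond Copg2, where Tsga13, Klf14 and Mkln1 lie, though only 6 such genes were listed there. Both lists were chosen with earlier results of these data known, and a level alone cannot show that a name is right. The tissue-restricted genes were less clear, since 2 of the 12 before Mest reached even 20 CPM. The names of Mest and Copg2 themselves were not secured by this check.

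**Figure D1:**
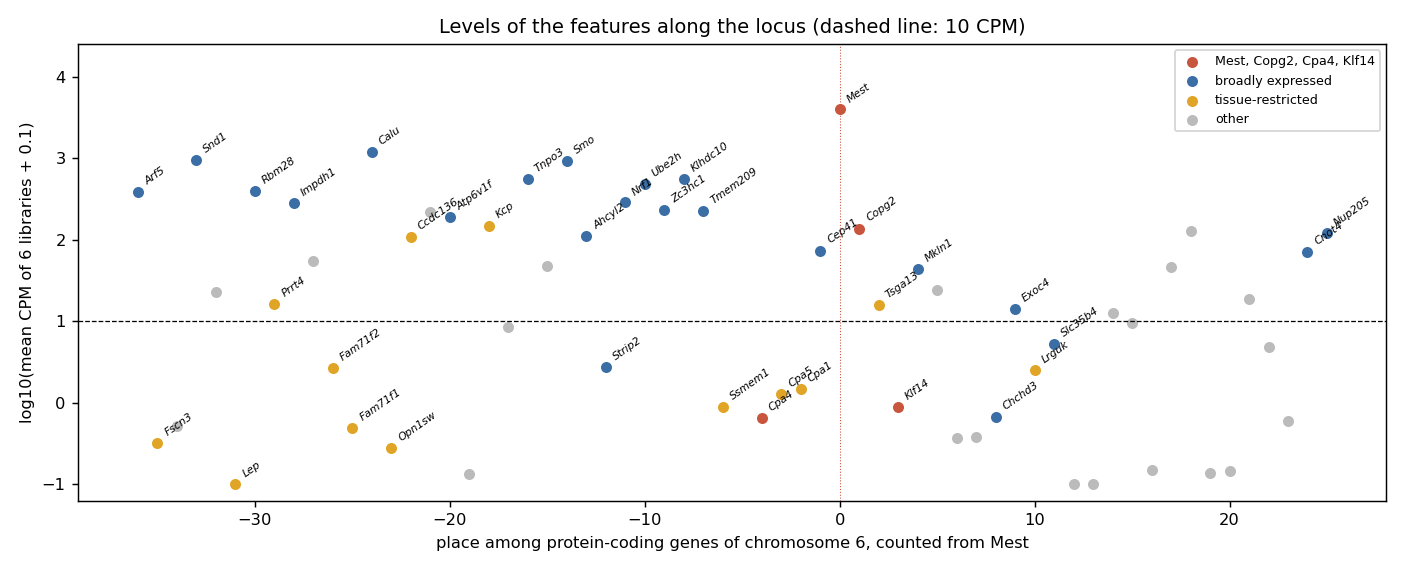
The plot of levels along the locus gives log10 of the mean CPM of all 6 libraries plus 0.1 against place for protein-coding genes on chromosome 6, counted from Mest. Points left of Mest that are broadly expressed lie above the dashed line of 10 CPM except Strip2, whereas beyond Copg2 only 4 of 6 do, and Mest is the highest point.

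The feature named Mest was among the most abundant of the table, rank 26 of 56953 by mean CPM. It stood at 3276, 2519 and 2343 CPM in the wild-type libraries (replicates 1 to 3) and reached 6121, 4554 and 4945 CPM in the mutant libraries (replicates 1 to 3). Every mutant library was above every wild-type library, and the lowest mutant value was 1.39 times the highest wild-type value. The means were 2713 ± 496 and 5206 ± 816 CPM, a log2 fold change of 0.94 ± 0.15 (SE), or 1.92-fold, with an adjusted p of 0.0124 (edgeR quasi-likelihood test over 14550 features). This log2 fold change exceeded that of 95.6% of the features tested. As a share of all counts of a library, Mest took 0.232% to 0.322% in wild type and 0.476% to 0.596% in the mutant. In bulk tissue, more cells that express a gene and more RNA per cell cannot be told apart.

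The call of Mest depended on single wild-type libraries. It was lost without wild-type replicate 2 (log2 fold change 0.89, edgeR adjusted p = 0.0766) and without wild-type replicate 3 (0.85, edgeR adjusted p = 0.052). Calls over all features also fell in those fits, from 618 higher and 534 lower with all libraries. They numbered 66 and 63 without wild-type replicate 2, and 163 and 151 without wild-type replicate 3. Without wild-type replicate 1, the highest of its group for Mest, the log2 fold change of Mest was 1.11. Y-linked genes marked wild-type replicate 1 and mutant replicates 2 and 3. Among these 3 libraries Mest had 3276 CPM for the wild type against 4554 and 4945 CPM in the mutants, and among the others at 2519 and 2343 CPM against 6121 CPM. Each side of that split has 1 library in an arm, so no test was made within it.

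Copg2 stood at 115.8, 126.8 and 119.6 CPM in the wild-type libraries (replicates 1 to 3) and reached 140.2, 165.4 and 152.6 CPM in the mutant libraries (replicates 1 to 3). All 3 mutant libraries were above all 3 wild-type libraries, with the lowest mutant at 1.1 times the highest wild type. The means were 120.8 ± 5.6 and 152.7 ± 12.6 CPM, a log2 fold change of 0.34 ± 0.09 (SE), which did not pass in edgeR (adjusted p = 0.0584). The Wald test of DESeq2 did pass it (log2 fold change 0.34, adjusted p = 0.027), as did edgeR without a filter on low counts (0.36, adjusted p = 0.0324). That last fit called more of all features, 1352 higher and 1145 lower against 618 and 534. The other 12 alternative fits did not pass Copg2, among them limma-voom (adjusted p = 0.0571) and edgeR with a term for embryo sex (adjusted p = 0.124). In the authors' deposited DESeq2 table Copg2 has a log2 fold change of 0.35 with an adjusted p of 0.0267, and Mest one of 0.95 with 4.56e-07.

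Mest and Copg2 did not follow each other within the groups. In the mutant, Mest was highest in replicate 1, where Copg2 was lowest, and Copg2 was highest in replicate 2, where Mest was lowest. In wild type, Mest was highest in replicate 1, where Copg2 was again lowest. The ratio of Mest to Copg2 in CPM was 28.3, 19.9 and 19.6 in wild-type replicates 1 to 3 and 43.7, 27.5 and 32.4 in mutant replicates 1 to 3. These ratios overlapped between the groups, since wild-type replicate 1 lay above mutant replicate 2. The difference in mean log2 ratio was 0.61 (exact two-sided permutation test over libraries, p = 0.2). The smallest p that 3 against 3 can give is 0.1, so this test could not pass the threshold whatever the ratios were. It cannot decide whether Mest changed beyond Copg2, and no conclusion is drawn from it. Per kilobase of exon, a scale on which genes can be compared, the mean level of Mest was 688 CPM for wild type and 1320 CPM for the mutant, and that of Copg2 was 23.6 and 29.8 CPM.

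The 3′ ends of both genes share 912 bases of exon on opposite strands in GENCODE M21. The library kit keeps the strand, but no source used here gives the strand setting of featureCounts. The mutant mean of Copg2 was 31.96 CPM above wild type, equal to 1.28% of the difference of 2493 CPM in Mest. Whether reads of Mest were counted under Copg2 was not tested.

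Klf14 was near the floor of detection, with 21, 21 and 9 reads in wild-type replicates 1 to 3 and 23, 18 and 21 in mutant replicates 1 to 3. On the CPM scale this was 0.78, 0.77 and 0.48 against 0.96, 1.01 and 0.80. The groups did not overlap, but by a margin of less than 1 read, and the log2 fold change of 0.42 ± 0.34 (SE) did not pass (edgeR adjusted p = 0.489). Cpa4 had 16, 16 and 4 reads in wild-type replicates 1 to 3 and 10, 15 and 16 in mutant replicates 1 to 3. Its groups overlapped, with means of 0.47 ± 0.22 and 0.62 ± 0.21 CPM and a log2 fold change of 0.35 ± 0.48 (SE, edgeR adjusted p = 0.688). The order of levels per kilobase was thus Mest, Copg2, then Klf14 at 0.22 and Cpa4 at 0.17 CPM in wild type, and the latter pair did not differ beyond their spread.

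Of the 4 genes, Mest alone was called higher in edgeR and 0 were called lower, beside 4.25% of all tested features called higher and 3.67% called lower. By the DESeq2 Wald test, Copg2 was higher too and again 0 were lower, where 967 features in all were higher and 796 lower. The median log2 fold change of the 4 was 0.39, against -0.01 over all tested features. All mutant libraries lay above all wild-type libraries in 3 of the 4, beside 15.8% of all tested features in that direction, 16.1% in the other and 31.9% in either. The genes were proposed with this comparison in view, so nothing is read from these shares.

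**Figure D2:**
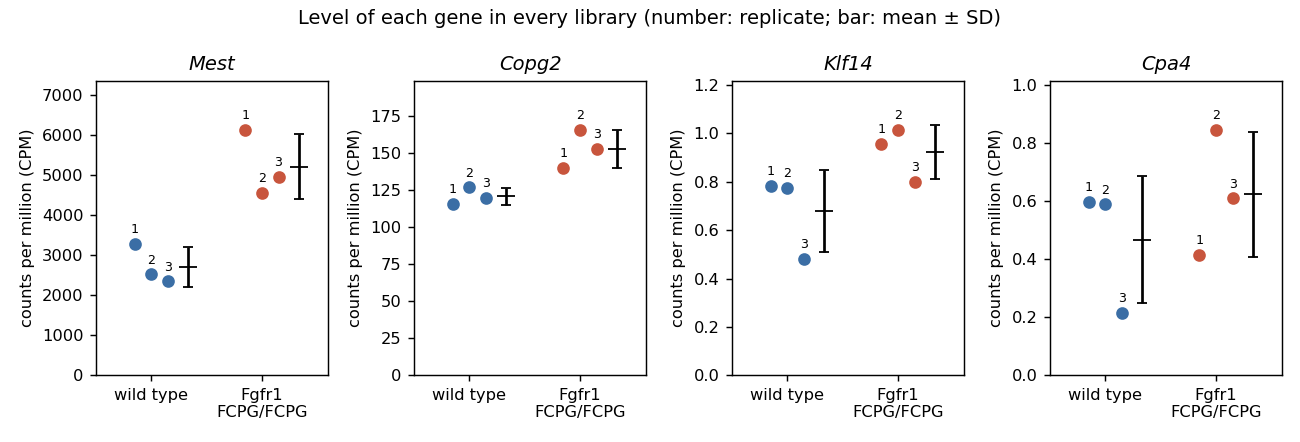
The plot of levels by library shows CPM of Mest, Copg2, Klf14 and Cpa4 on a separate linear axis from 0 for each gene, with each numbered point a library and the bar the mean ± SD of 3. The groups are apart for Mest and Copg2, touch for Klf14 and overlap for Cpa4.

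The features inside the Mest transcription unit were scarce. Mir335, whose 98 bases lie in a Mest intron, had 64, 31 and 14 reads in wild-type replicates 1 to 3 and 61, 36 and 52 in mutant replicates 1 to 3. The groups overlapped at 1.43 ± 0.85 and 2.18 ± 0.31 CPM (log2 fold change 0.59 ± 0.41 SE, edgeR adjusted p = 0.406). Wild-type replicate 1, the wild-type library with most Mest, was also the one with most Mir335 reads. Polyadenylated RNA was sequenced, so these reads come from longer transcripts and are no measure of the mature products printed above. Gm44296, an antisense RNA within Mest that shares no exon with it and was singled out after its values were seen, had 8, 7 and 3 reads in wild type and 17, 15 and 15 in the mutant (log2 fold change 1.50 ± 0.41 SE, edgeR adjusted p = 0.0616). Its groups did not overlap.

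The neighbours on the Cpa4 side differed in both directions, and some by more than Mest. Among called genes, Prrt4 had a log2 fold change of 2.48 and Strip2 one of -1.23. Tmem209, which encodes a nuclear envelope protein, rose from 187.6 ± 7.3 to 264.4 ± 16.1 CPM, or 0.50 ± 0.08 (SE) on the log2 scale, with an edgeR adjusted p of 0.0123. Leaving out each of the 6 libraries in turn ended its call once, for wild-type replicate 2 (edgeR adjusted p = 0.0796). Klhdc10, a substrate receptor of a ubiquitin ligase, stood at 500.6, 476 and 437.2 CPM in the wild-type libraries (replicates 1 to 3) and reached 718.8, 672.4 and 568.4 CPM in the mutant libraries (replicates 1 to 3). Its log2 fold change of 0.47 passed (edgeR adjusted p = 0.0316) but was lost in 5 of the 6 such fits, all but that without mutant replicate 3, with edgeR adjusted p up to 0.133, and with a term for embryo sex. Between these genes and Mest, Cep41 had a log2 fold change of 0.10 ± 0.11 (SE), which did not pass (edgeR adjusted p = 0.629).

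Other genes beside Cpa4 were low and not called. Cpa5, of the carboxypeptidase row, stood at 0.55 ± 0.54 and 1.80 ± 0.67 CPM and Cpa1 at 1.32 ± 0.27 and 1.41 ± 0.76 CPM, neither past the threshold. Ssmem1 stood at 0.85 and 0.75 CPM.

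On the other side, Tsga13, a testis gene next to the start of Copg2, rose from 13.1 ± 1.1 to 18.3 ± 0.8 CPM (log2 fold change 0.49 ± 0.12 SE, edgeR adjusted p = 0.0442). That call was lost in all 6 fits that leave out a library, with edgeR adjusted p from 0.0655 to 0.153. Mkln1, which encodes muskelin, stood at 43.1 ± 1.6 and 43.7 ± 2.0 CPM, so the groups differed by less than the spread. Exoc4, of the exocyst, stood at 12.5 ± 0.7 and 16.0 ± 1.2 CPM and was not called.

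Over the 22 broadly expressed genes on either side, 4 were higher and 1 lower in the mutant, beside 7.92% of all tested features called in either direction, and their median log2 fold change was 0.03. The higher genes were Tmem209, Klhdc10, Nup205, a scaffold of the nuclear pore, with 0.39 and Snd1 with 0.34 on the log2 scale, the latter a component of the RNA-induced silencing complex. The lowest values were those of Strip2, which fell by 1.23 on the log2 scale from 3.70 to 1.58 CPM, and Chchd3, with -0.37 and no call (edgeR adjusted p = 0.738), near the floor of detection. The calls of Snd1, Nup205 and Strip2 were lost in 5, 5 and 4 of the 6 fits that leave out a library. The number called was 0 without wild-type replicate 2 in edgeR, where calls over all features were 66 higher and 63 lower. In that fit 7 of the 22 had an unadjusted p below 0.05. No share over all features stands beside that 7, so nothing is read from it. The number called was 1 without wild-type replicate 3 (163 higher and 151 lower over all features) or mutant replicate 1 (327 and 259). It was 2 without wild-type replicate 1 (408 and 415 over all features) or mutant replicate 3 (783 and 565). It was 2 with the replicate block (433 and 411) and 1 with a term for embryo sex (273 and 264). The other genes between Smo and Exoc4 did not pass: Smo stood at 960.7 and 901.6 CPM in wild type and mutant, Ahcyl2 at 115.1 and 107.8 CPM, Nrf1 at 290.4 and 283.7 CPM, Ube2h at 455.3 and 522.8 CPM and Zc3hc1 at 212.1 and 248.5 CPM.

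**Figure D3:**
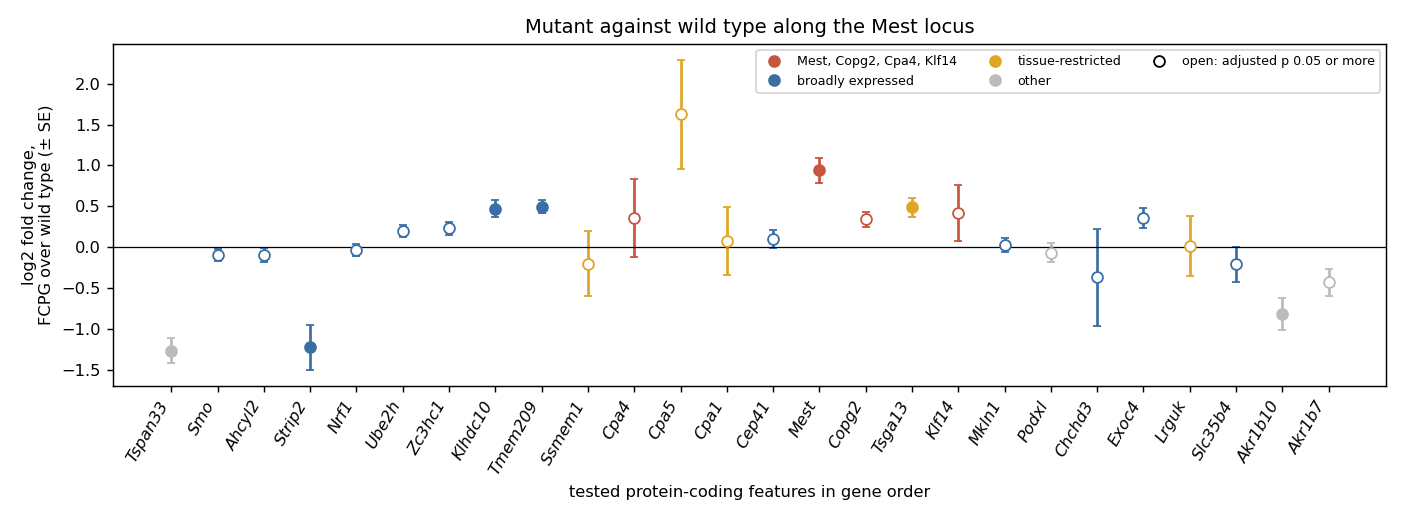
The plot of change along the locus gives the log2 fold change of mutant over wild type with its SE for tested protein-coding features within 15 places of Mest, in gene order, filled where the adjusted p is below 0.05. Mest, at 0.94, is the highest filled point, Klhdc10, Tmem209 and Tsga13 are filled at about 0.5, Tspan33 (-1.27), Strip2 (-1.23) and Akr1b10 (-0.82) are filled below 0, and Cep41, next to Mest, lies near 0.

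Imprinted genes of chromosome 6 other than these lie mostly in the Peg10 and Sgce cluster of the same chromosome. Of the 14 listed genes, the 4 above included, 13 were tested, 5 were higher and 3 lower in the mutant, beside 7.92% of all tested features called in either direction, and their median log2 fold change was 0.42. Genes of a cluster are not independent, and values of several were known when the list was made. The paternally expressed Sgce, which encodes epsilon-sarcoglycan, stood at 108.5, 103 and 102.3 CPM in the wild-type libraries (replicates 1 to 3) and reached 202.4, 155.8 and 216 CPM in the mutant libraries (replicates 1 to 3). It rose by 0.87 ± 0.12 (SE) on the log2 scale (edgeR adjusted p = 0.00872), and Peg10, also paternally expressed, rose by 1.59. The call of Sgce was lost without wild-type replicate 2 (edgeR adjusted p = 0.0618). Asb4 rose by 1.50 and Ppp1r9a, a neuronal actin-binding protein also called neurabin, by 0.54 on the log2 scale. Both are reported as maternally expressed, but no direction is read for such genes as a group.

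Neighbours of the same cluster moved the other way. The paraoxonase gene Pon3 fell from 34.3 ± 5.2 to 18.8 ± 2.5 CPM, Pon2 from 116.7 ± 13.5 to 77.3 ± 12.2 CPM and the protease inhibitor gene Tfpi2 from 6.28 ± 1.40 to 2.63 ± 0.50 CPM (edgeR adjusted p = 0.0149, 0.0392 and 0.0236). The calls of Pon2, Ppp1r9a and Tfpi2 were lost in 5, 4 and 3 of the 6 fits that leave out a library and with the replicate block. Those of Pon3 and Asb4 were lost in 2 and 1 of the 6 fits, and that of Peg10 in 0. Calcr, at 0.66 and 1.12 CPM, and Pon1, at 0.51 and 0.52 CPM, were low and not called, and Nap1l5, at 0.32 and 0.21 CPM, did not pass the filter on low counts. Without wild-type replicate 2 only 1 gene of the list was called, without wild-type replicate 3 there were 3, and with the replicate block or without mutant replicate 2 there were 5. Over all features, 618 were higher and 534 lower in the main fit. In the fits just named, in that order, they were 66 and 63, 163 and 151, 433 and 411, and 516 and 393. The drop in calls was thus not particular to the list.

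**Figure D4:**
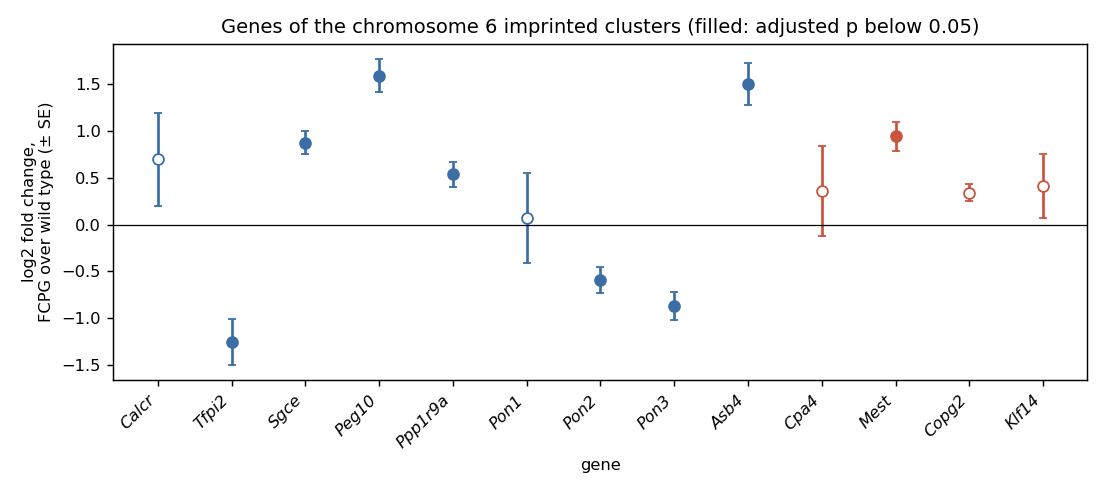
The plot of imprinted genes gives the log2 fold change of mutant over wild type with its SE for the 13 tested genes of the list, with the 4 genes of the Mest region in red and filled points for an adjusted p below 0.05. Sgce, Peg10, Ppp1r9a, Asb4 and Mest are filled above 0, and Tfpi2, Pon2 and Pon3 are filled below 0.

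The genes most like Mest were sought among 104 other tested protein-coding features between Calcr and Exoc4 on chromosome 6. Likeness was the Pearson correlation of log2 CPM over the 6 libraries, which share the group difference, and is given as a description. The closest were Peg10 at 0.96, Prrt4 at 0.95, Sgce and Wnt2 at 0.94 and Klhdc10 at 0.93. All of these were called higher in the mutant except Wnt2, whose log2 fold change of 3.24 did not pass (edgeR adjusted p = 0.0584). The least alike were C1galt1, which starts the core of O-linked glycans, at -0.97, Strip2 at -0.95, Pon3 at -0.94, Tfpi2 at -0.88 and Ndufa5, a subunit of complex I, at -0.85. Klf14 had a correlation of 0.77 with Mest, Copg2 0.71 and Cpa4 0.40. With the group means removed, that of Copg2 was -0.79 and that of Peg10 0.67.

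Other features of the libraries moved with the genotype beside Mest. Hemgn, a gene of erythroid precursors, had 103.3, 68.2 and 62.8 CPM in the wild-type libraries against 22.5, 15.9 and 10.7 CPM in the mutant libraries. The 7 erythroid markers together summed to 149.4 to 185.1 CPM in wild type and 82.9 to 98.4 CPM in the mutant, with 1 of 3 tested members lower and Hbb-bh1, Hbb-y and Alas2 at 0 in all libraries. The 8 tailbud and presomitic markers summed to 217.1 to 339.5 CPM and 74.7 to 129.9 CPM, with 2 of 3 tested members lower and T at 0. Features of the mitochondrial genome took 11.0% to 14.1% of counts in wild type and 5.53% to 6.50% in the mutant. The 3 endothelial markers summed to at most 3.69 CPM, and the 3 of surface ectoderm and gut to at most 0.19 CPM. T is a defining gene of the tailbud and Hbb-y and Hbb-bh1 are the beta-type globins of embryonic blood, so with these rows at 0 the marker lists do not check the tissue. Their part in the level of Mest was not tested.

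**Figure D5:**
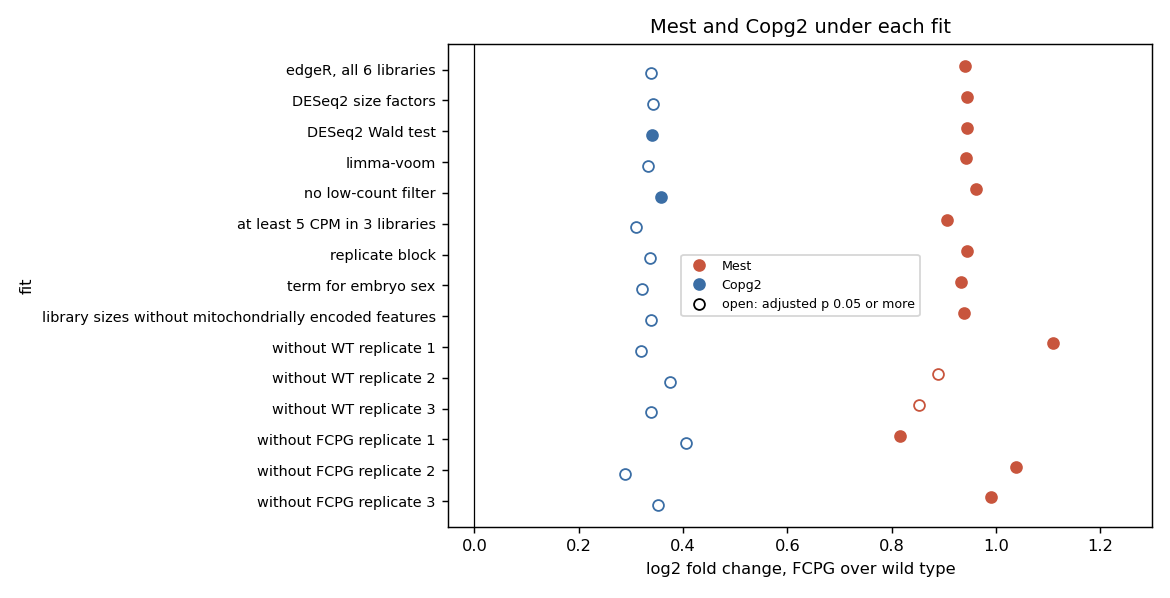
The plot of fits gives the log2 fold change of mutant over wild type of Mest (red) and Copg2 (blue) under edgeR with all 6 libraries and the 14 alternative fits, filled where the adjusted p is below 0.05. Mest stays between 0.82 and 1.11 and is open in 2 fits, and Copg2 stays between 0.29 and 0.41 and is filled in 2.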

How the data were processed

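The file the authors deposited holds raw, whole-number counts for 56953 Ensembl gene IDs in 6 libraries of polyadenylated RNA, with library totals of 16984568 to 27316475. The build mm39 and the tools featureCounts, Bowtie, DESeq and DESeq2 come from the submitters' processing notes. Tool versions, the annotation used and whether featureCounts used strand are not given in the sources used here. Per the labels' protocols, the kit was a stranded one for mRNA. The column names of the count table carry 10-5, unexplained, whereas the labels give day 9.5, which is used here. The authors' deposited DESeq2 table gives, per the file headers, a mean normalized signal, the Wald score, p-values and a log2 fold change with standard error, and was read for the 4 genes only.

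IDs were cut to 18 characters, leaving no duplicates, and 52029 of 56953 matched a symbol. Gene order, exon length and overlap came from GENCODE M21, on an older build, and promoter and microRNA sequences from RefSeq on GRCm38.p6. The letters and number in a column name gave its sample. No pair of libraries agreed within sampling noise (chi-square per degree of freedom at least 24.2). The test was edgeR's quasi-likelihood test (glmQLFit and glmQLFTest, version 4.0.16, under R 4.3.3) with filterByExpr, TMM and no covariate, over 14550 features, at a Benjamini-Hochberg adjusted p below 0.05, and the test was checked on simulated counts. Alternatives were DESeq2 1.42.0 size factors, its Wald test, limma-voom (limma 3.58.1), no filter, at least 5 CPM in 3 libraries, the replicate number as a block, embryo sex as a term (from Y-linked features), library sizes that omit mitochondrially encoded features, and each library left out. Likeness used log2 CPM with a prior count of 2. The genes and all lists, among them the marker lists, were chosen with earlier results of these data known. Named besides the 4 genes were features of their transcription unit, all listed genes from Smo to Exoc4, the broadly expressed genes with the largest and smallest log2 fold change (2 each), called imprinted genes, and the 5 features most and least like Mest. Some listed genes are not reported here.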

Additional observations from a re-analysis of the deposited data

How the results depend on the processing

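Mest kept its direction in all 14 alternative fits and its call in 12. Its log2 fold change ran from 0.82 to 1.11 without 1 library, and the 2 lost calls, without wild-type replicates 2 and 3, have values of 0.89 and 0.85. Copg2 kept its direction in all 14 fits, with 0.29 to 0.41 without 1 library, and passed with the DESeq2 Wald test (0.34) and with no low-count filter (0.36). Cpa4 and Klf14 kept their direction and were not called in any of the 13 fits that gave a value. Without 1 library their log2 fold changes ran from 0.06 to 0.59 and from 0.25 to 0.54. The filter of 5 CPM left both out, and DESeq2 gave Cpa4 no adjusted p.

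Over all features 618 were higher and 534 lower, against 967 higher with the DESeq2 Wald test, 1352 and 1145 with no low-count filter, 273 and 264 with the term for embryo sex, and 66 to 783 and 63 to 565 without 1 library. The broadly expressed neighbours called numbered 5, against 2 with the replicate block, 1 with the term for embryo sex and 0 to 6 without 1 library. The imprinted genes called numbered 8, against 5 with the replicate block and 1 to 8 without 1 library. The tissue-restricted neighbours detected numbered 5, against 9 at a minimum of 1 CPM and 2 at 20 CPM, as the construction of that minimum implies. Why the numbers called differ between the fits was not tested. The deviations of libraries with the same number from their group means had correlations of -0.229, -0.00512 and -0.00752, so nothing shows that the numbers pair the libraries. The replicate block called 433 features higher and 411 lower, with Mest at a log2 fold change of 0.94 (adjusted p = 0.00243 by edgeR) and Copg2 at 0.34 (adjusted p = 0.0869).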
